A study of Mus with 8 samples.

Results

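The elastic fibre genes are a group of 10 genes chosen by name, Eln, Fbn1, Fbn2, Fbln5, Efemp2, Emilin1, Mfap4, Mfap5, Lox and Loxl1, and their levels were read in 8 cultures of mouse aortic smooth muscle cells. The members were found as the array probes whose gene symbol, old or current, was one of these names. 14 of the 46237 probes matched, and they covered 9 of the 10 genes. Efemp2 had no probe under its name in the annotation used and was not analysed here. 11 of the 14 probes were detected on at least 4 of the 8 arrays (detection p-value under 0.05), and 7 of the 10 genes entered the tests, among 11859 genes in all. Fbln5 and Fbn2 did not pass this filter.

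Elastic fibres let the wall of the aorta stretch and recoil, and in that wall they are laid down mainly by smooth muscle cells. Their core is cross-linked elastin, the product of Eln, which is deposited on a scaffold of microfibrils built from fibrillins, the products of Fbn1 and Fbn2. Adaptor proteins such as the fibulins and emilin 1 bring elastin and microfibrils together, and the lysyl oxidases encoded by Lox and Loxl1 modify lysines of elastin so that its chains become covalently joined.

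The cultures came from the aortas of male C57 black 6 mice aged 8 weeks and were used at passage 1 in medium with fetal calf serum. All 8 came from mice with the floxed Tie2 gene (Tek), which encodes a receptor for angiopoietins. The 4 WT cultures lacked Cre, and the 4 KO cultures carried SM22α Cre, which is driven by a smooth muscle promoter, so the Cre transgene and the deletion of Tek cannot be told apart in this design. Total RNA of each culture was measured on 1 Illumina bead array. Cultures are numbered 1 to 4 within each group by the labels, which do not say how many mice gave each culture. The p-values therefore take the culture as the unit, and the spread between mice is not known.

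Across the arrays, the median scanner intensity was 94.7 to 128.1 and 44.9% to 49.5% of probes were detected, and any 2 arrays had a correlation of 0.912 to 0.980 across the tested genes. By the array labels, slide 1 carried all 4 WT cultures together with KO cultures 1 and 2. KO cultures 3 and 4 were on slide 2, where there was no WT array. The targeted gene Tek was lower in every KO culture than in any WT culture, with a mean log2 intensity of 6.72 ± 0.49 (SD, n = 4) for WT against 5.24 ± 0.33 (SD, n = 4) for KO. Its limma adjusted p over all genes was 0.81, and its exact permutation p was 0.0286, the smallest that 4 cultures against 4 allow. WT culture 2 had the lowest Myh11 (smooth muscle myosin heavy chain) of the 8 at 5.23, against 7.68 to 8.75. It also had the highest Pdgfra and Dcn, 2 of the 11 tested fibroblast markers, at 11.03 and 14.17. On the mean of all 11, each centred on its own mean, KO culture 1 was higher, at 0.52 against 0.48.

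Values are log2 intensities after background correction and quantile normalization, and differences are KO minus WT on this scale. 0 of the 7 tested elastic fibre genes passed a limma adjusted p of 0.05, and 0 had an unadjusted p under 0.05. Over all 11859 genes 0 passed the adjusted threshold (0%), while 681 (5.74%) fell under an unadjusted p of 0.05, of which 310 (2.61%) were higher in KO and 371 (3.13%) lower. The limma adjusted p of the 7 genes lay between 0.87 and 0.96. 2 of them, Eln and Lox, were higher in KO by sign and 5 were lower, and 50.3% of all genes were lower by sign. Within slide 1, which held only 2 KO arrays, all 7 were lower by sign. Their median difference there was -0.13, against -0.026 over all genes. Each of the 7 differences was smaller in size than its standard error, such as -0.20 with 0.23 for Mfap5 and -0.04 with 0.16 for Lox. The share of all genes lower by sign within slide 1 is not given. Over the full set of arrays, the median difference was -0.10 over the 7 genes and -0.0024 over all genes tested. In 0 of the 7 genes were the WT and KO cultures separated without overlap, as they were in 3.28% of all genes.

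**Figure D1:**
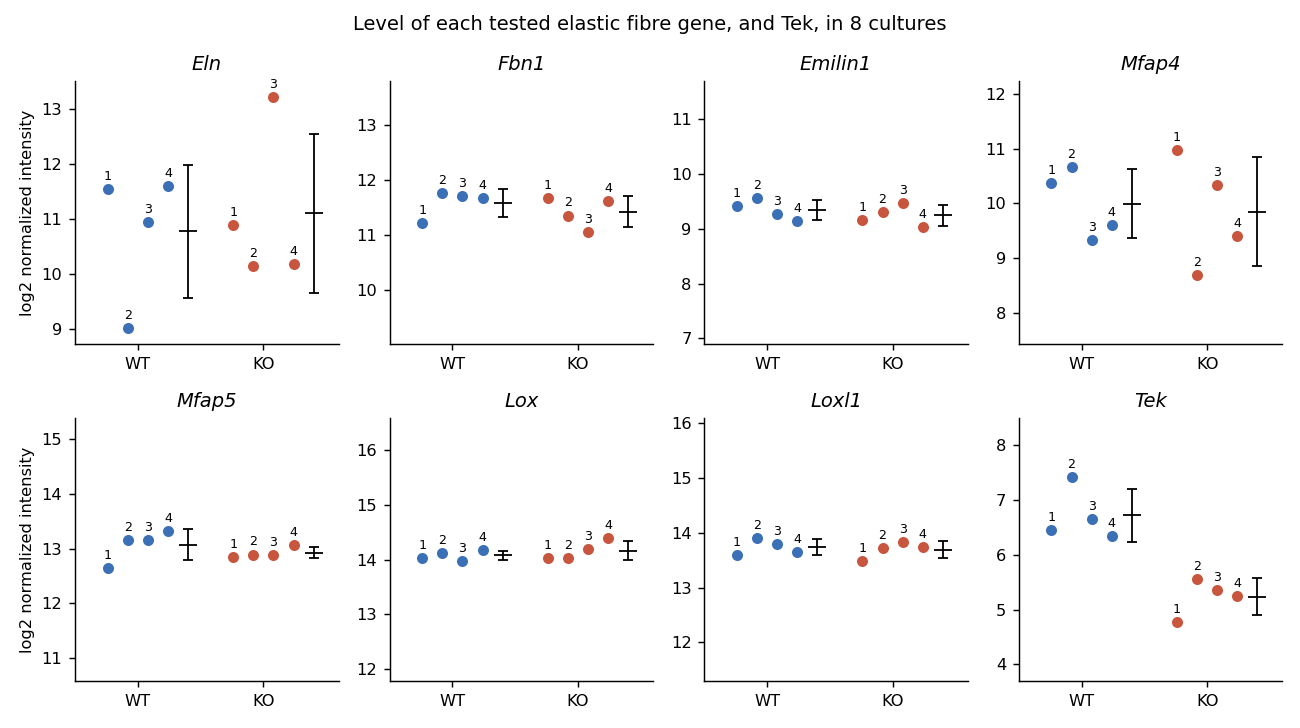
Log2 normalized intensity of the 7 tested elastic fibre genes and of Tek in each culture. Blue points are the 4 WT and red points the 4 KO cultures, numbered by replicate; the black bar beside each group is the mean with its SD, and every panel spans the same range of log2 units. Eln runs from 9.02 to 13.22 with the groups interleaved, Lox and Loxl1 are nearly flat, and only Tek separates the groups.

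Elastin itself varied more between cultures than any other tested member. The level of Eln was 11.56, 9.02, 10.95 and 11.60 in WT cultures 1 to 4 and 10.89, 10.15, 13.22 and 10.18 in KO cultures 1 to 4. KO culture 3 was the highest and WT culture 2 the lowest of the 8, and the remaining 6 were mixed between the groups. The distance from lowest to highest was 18.4-fold. On the scanner scale, before any normalization, the same probe read 9694 in KO culture 3 and 597.1 in WT culture 2, against 1243 to 3397 in the other cultures. The WT mean was 10.78 ± 1.21 (SD, n = 4) and the KO mean 11.11 ± 1.45 (SD, n = 4). The difference of 0.33 had a standard error of 0.79 and a 95% interval of -1.48 to 2.13, that is from 0.36-fold to 4.38-fold of the WT level, with a limma adjusted p of 0.95 and an exact permutation p of 0.74. Its sign rested on single cultures: it was -0.26 without WT culture 2 and -0.38 without KO culture 3. Within slide 1 it was -0.26.

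A second probe listed for Eln, annotated under the older clone name E030024M20Rik, was dim, and 2 of 4 WT and 1 of 4 KO arrays detected it. It did not pass the detection filter. It read 6.12 in KO culture 3 and 4.24 to 5.03 in the other 7 cultures, which lies near background, so no order is read from it.

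On their brightest probes, the microfibril genes were less variable, apart from Mfap4. Fbn1 encodes fibrillin 1, the main microfibril protein of the adult aorta, and its brightest probe read 11.21, 11.76, 11.71 and 11.67 in WT cultures 1 to 4 and 11.67, 11.35, 11.05 and 11.61 in KO cultures 1 to 4. The lowest 2 of these values were those of KO culture 3, where Eln was highest, and of WT culture 1. The mean was 11.59 ± 0.26 (SD, n = 4) for WT against 11.42 ± 0.28 (SD, n = 4) for KO, which gives a difference of -0.17 with a standard error of 0.20. The 95% interval ran from 0.65-fold to 1.22-fold. Without KO culture 3 the difference was -0.04, and without WT culture 1 it was -0.29. Within slide 1 it was -0.08.

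The other probes listed for Fbn1 ordered the cultures differently. The second, also bright and detected on all 8 arrays, read 10.38, 9.87, 10.94 and 10.70 in WT cultures 1 to 4 and 9.59, 10.58, 10.87 and 11.03 in KO cultures 1 to 4. Its lowest culture was KO 1, which stood in the middle of the order on the first probe, and its difference of 0.04 had a standard error of 0.35. The remaining probe was dim, was detected in 3 of 4 WT and 4 of 4 KO cultures, and gave 0.65 with a standard error of 0.38. The 3 probes thus disagree on the sign for Fbn1, and their mean gave a difference of 0.17.

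Fbn2 encodes fibrillin 2, which is known mainly from developing tissue. Its single probe was detected in 1 WT culture of 4 and in 0 KO cultures, with scanner intensities of 87.5 to 116.9. These lie at the level of background, so no fold is given.

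Mfap4 encodes a microfibril-associated glycoprotein that binds elastin and fibrillins. After Eln it was the most variable tested member, at 10.36, 10.67, 9.33 and 9.61 in WT cultures 1 to 4 and 10.97, 8.70, 10.34 and 9.40 in KO cultures 1 to 4. The highest and the lowest culture were both KO, KO 1 and KO 2, and they differed 4.82-fold. The WT mean of 9.99 ± 0.63 (SD, n = 4) and the KO mean of 9.85 ± 1.00 (SD, n = 4) differed by -0.14, with a standard error of 0.51 and a 95% interval from 0.41-fold to 2.01-fold. The difference was 0.24 without KO culture 2, 0.01 without KO culture 4, 0.08 without WT culture 2 and -0.51 without KO culture 1. Within slide 1 it was -0.16.

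Mfap5 encodes another microfibril-associated glycoprotein, which binds fibrillins. Its level was 12.65, 13.16, 13.16 and 13.32 in WT cultures 1 to 4 and 12.85, 12.89, 12.88 and 13.07 in KO cultures 1 to 4. The KO cultures lay close together, inside the range of the WT cultures, whose lowest member was WT 1. The difference of -0.15 had a standard error of 0.17 and a 95% interval from 0.68-fold to 1.18-fold. It was -0.29 without WT culture 1, -0.07 without WT culture 4 and -0.20 within slide 1.

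Among the genes that link elastin to microfibrils, Emilin1 was measured well and Fbln5 was not. Emilin1 encodes emilin 1, a glycoprotein found where elastin meets the microfibrils. Its values were 9.41, 9.55, 9.27 and 9.14 in WT cultures 1 to 4 and 9.15, 9.31, 9.48 and 9.04 in KO cultures 1 to 4. The groups covered nearly the same range, and the difference was -0.10 with a standard error of 0.16, within a 95% interval from 0.72-fold to 1.20-fold. Within slide 1 it was -0.11, and it was -0.03 without WT culture 2 as well as without KO culture 4. A second, dim probe of Emilin1, annotated under the clone name 5830419M17Rik, gave -0.51 with a standard error of 0.20 and was detected in 4 WT and 3 KO cultures. In the authors' value table that probe differed by -0.15. The mean of the kept probes of Emilin1 gave -0.31 with a standard error of 0.15 and a limma adjusted p of 0.81. The size of the Emilin1 difference thus depends on the probe.

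Fbln5 encodes fibulin 5, which binds elastin and Loxl1 and tethers them to the cell surface. Its single probe was detected on 0 of 8 arrays, with scanner intensities of 85.7 to 115.8 and a smallest detection p-value of 0.16. Fbln5 was therefore not well above background in either group through this probe, and no fold is given.

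The cross-linking enzymes were the steadiest members on their brightest probes, which were also the brightest probes of any member. Lox encodes lysyl oxidase, a copper-dependent enzyme, and its level was 14.04, 14.11, 13.98 and 14.17 in WT cultures 1 to 4 and 14.03, 14.04, 14.19 and 14.39 in KO cultures 1 to 4. KO culture 4 was the highest and KO culture 3 came next, just above WT culture 4. KO cultures 3 and 4 were the ones on slide 2, and the rest were interleaved. The difference of 0.09 had a standard error of 0.14, and the 95% interval ran from 0.85-fold to 1.33-fold. It was 0.01 without KO culture 4 and -0.04 within slide 1. The probe was among the brightest on the arrays, at 59.1% to 77.8% of the highest bead mean of its array, a range where arrays can compress differences.

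Loxl1, a lysyl oxidase relative needed for elastic fibre upkeep in mice, stood at 13.59, 13.91, 13.79 and 13.66 in WT cultures 1 to 4 and at 13.48, 13.72, 13.84 and 13.73 in KO cultures 1 to 4. The groups overlapped over most of their range. The difference was -0.04 with a standard error of 0.15 and a 95% interval from 0.77-fold to 1.23-fold, and it was 0.02 without WT culture 2, 0.03 without KO culture 1 and -0.13 within slide 1. This probe was also bright, at 40.2% to 58.6% of the highest bead mean of its array. Loxl1's second probe, dim but detected on all 8 arrays, gave -0.43 with a standard error of 0.21, and -0.20 in the authors' value table. The SD of the second probe was 0.42 over the WT and 0.18 over the KO cultures.

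**Figure D2:**
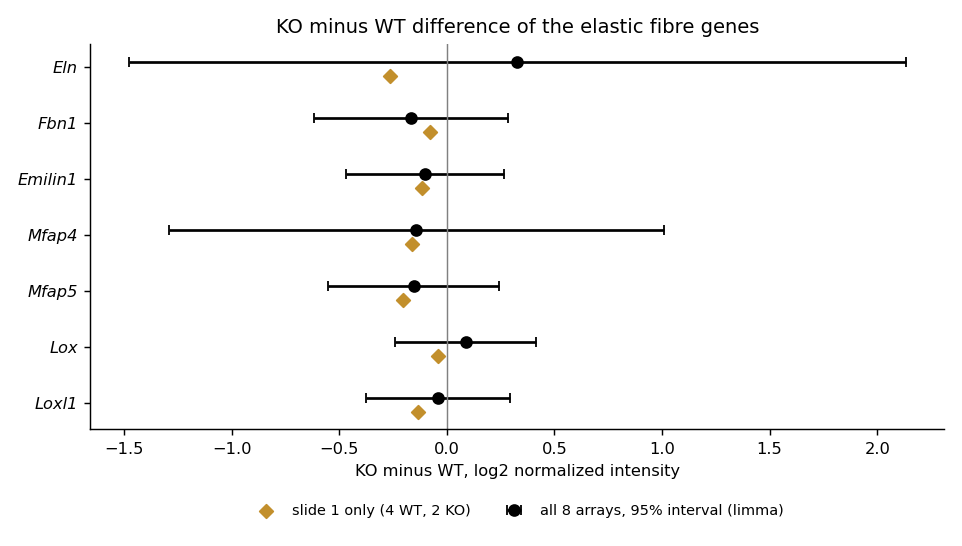
KO minus WT difference in log2 normalized intensity for the 7 tested elastic fibre genes. Black points with bars are the estimates from all 8 arrays with their 95% intervals in limma, and gold diamonds are the values within slide 1, which held 4 WT and 2 KO arrays. Every interval includes 0, those of Eln and Mfap4 are the widest, and Eln and Lox change sign within slide 1.

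The intervals set what these cultures can and cannot show. For the brightest probes of Lox, Loxl1, Emilin1, Mfap5 and Fbn1 the intervals leave out a 2-fold difference in measured intensity in either direction. Lox and Loxl1 lie in a bright range where arrays can compress differences. Second probes gave -0.51 for Emilin1 and -0.43 for Loxl1, with standard errors of 0.20 and 0.21. The other probes of Fbn1 gave 0.04 and 0.65. For Eln the interval includes 2-fold changes both ways, and that of Mfap4 includes a 2-fold change either way as well. Means of all genes differed by at least 2-fold in 205 of 11859 cases (1.73%), and in 0 of the 7 members.

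On their brightest probes the members therefore fell into a variable and a steady set within groups as well. The SD within a group, pooled over WT and KO, was 1.33 for Eln and 0.84 for Mfap4, against a median of 0.35 over all genes tested. 98.7% of all genes varied less than Eln and 93.9% varied less than Mfap4. The remaining 5 lay below the median, at 0.27 for Fbn1, 0.22 for Mfap5, 0.18 for Emilin1, 0.15 for Loxl1 and 0.13 for Lox. For Fbn1 this depends on the probe. Its second bright probe had an SD of 0.46 over the WT and 0.65 over the KO cultures, both above that median. Only 6.50% of all genes varied less than Lox. These shares describe single probes of different brightness, and bright probes vary less on these arrays.

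**Figure D3:**
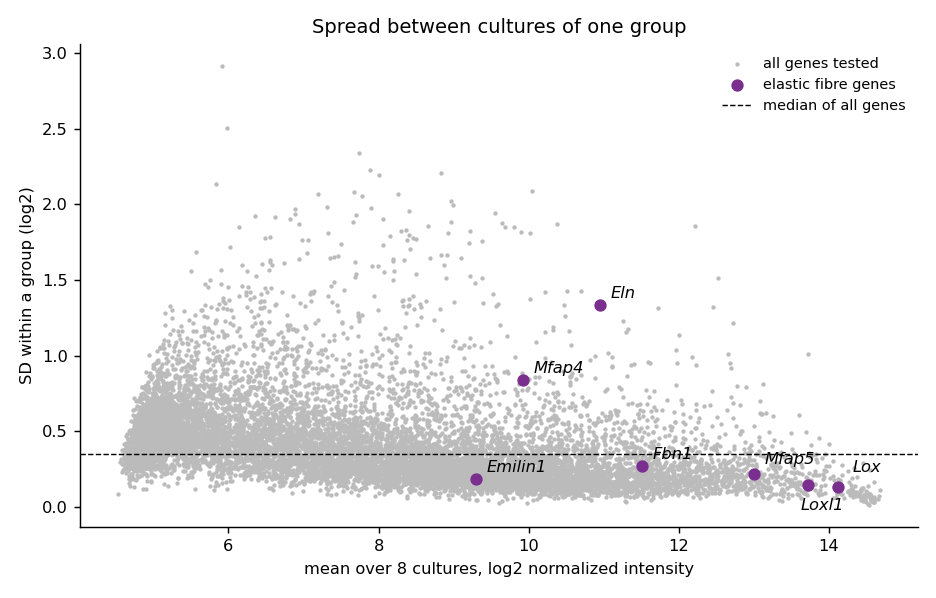
SD between the cultures of one group (vertical axis, log2) against the mean over 8 cultures (horizontal axis, log2 normalized intensity). Grey points are all 11859 genes tested, purple points the 7 tested elastic fibre genes and the dashed line the median of all genes. By the brightest kept probe of each gene, Eln at 1.33 and Mfap4 at 0.84 stand above the line and the other 5 members below it.

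The 7 genes did not share 1 order of cultures. Over the 8 cultures, 10 of the 21 pairs of members had a Pearson correlation above 0, with a median of -0.0013, which is given as a description. Fbn1 and Mfap5 were the most alike, at r = 0.71 and a Spearman rho of 0.74, and r was 0.55 without the 2 cultures farthest from the median of Fbn1. Eln and Fbn1 were the most opposed, at r = -0.67 and rho of -0.45. That relation rested on the 2 cultures at the extremes of Eln, WT 2 and KO 3, since without them r was -0.04. These correlations use the brightest probe of each gene. On those probes WT culture 2 illustrates the lack of a common order. It was the lowest culture for Eln and the highest for Fbn1, Emilin1 and Loxl1. On the second probes of Fbn1, Emilin1 and Loxl1 it was not the highest, at 9.87, 5.10 and 6.01. For Fbn1 only KO culture 1, at 9.59, was lower on that probe.

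The mean of the 7 genes, each centred on its own mean, was 0.05, -0.04, -0.04 and 0.10 in WT cultures 1 to 4 and 0.08, -0.33, 0.36 and -0.15 in KO cultures 1 to 4. The KO cultures held both the highest and the lowest value, KO 3 and KO 2, and the group means differed by -0.03. This mean follows chiefly Eln and Mfap4, the members that varied most.

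**Figure D4:**
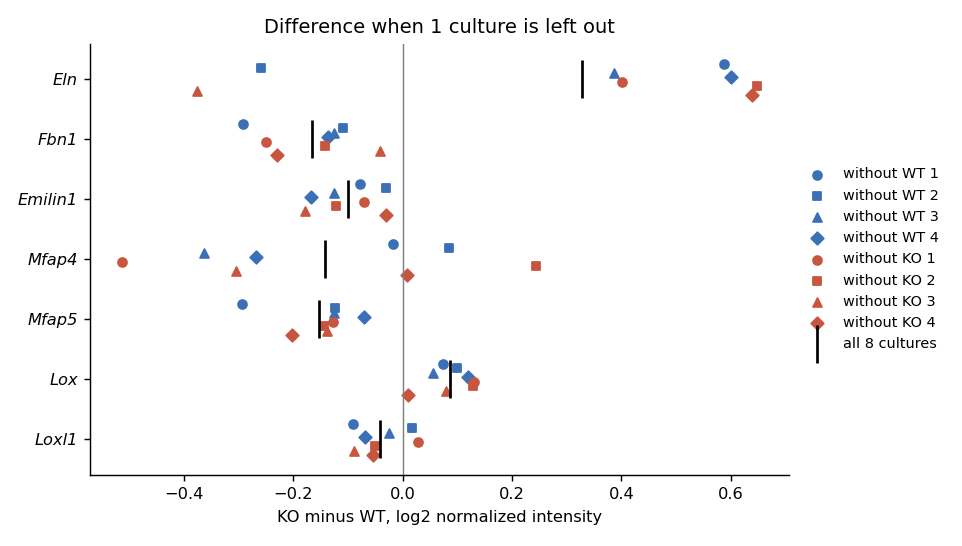
KO minus WT difference in log2 normalized intensity of each tested elastic fibre gene when 1 culture is left out. Blue symbols leave out a WT and red symbols a KO culture, and the black bar is the value from all 8 cultures. Eln ranges from -0.38 to 0.65 and Mfap4 from -0.51 to 0.24, while Lox ranges from 0.01 to 0.13.

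Genes whose pattern over the 8 cultures was most like that of Eln were Nbl1 (r = 0.96), Ric3 (r = 0.96), Rab33b (r = 0.96), Prkca (r = 0.95) and Gm44505 (r = 0.95), chosen as the highest Pearson correlations among the genes that are no member. Their Spearman rho lay between 0.90 and 0.98. Without WT culture 2 and KO culture 3, the cultures farthest from the median of Eln, r over the remaining 6 cultures lay between 0.80 for Prkca and 0.95 for Ric3. Ric3 was near background, being detected in 3 WT and 2 KO cultures. None of the 5 had a limma adjusted p below 0.87.

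The mean of the members was followed most closely by Adamts10 (r = 0.99), B230219D22Rik (r = 0.97), Ecrg4 (r = 0.97), Creld1 (r = 0.94) and Slc17a9 (r = 0.93). Their Spearman rho lay between 0.83 and 0.98. KO cultures 2 and 3 were the farthest from the median of this mean. Without them r lay between 0.72 for Slc17a9 and 0.94 for B230219D22Rik. Adamts10 encodes a secreted protein that binds fibrillin 1, and it is also in the list of microfibril partners. It read 6.62, 6.33, 6.23 and 6.59 in WT cultures 1 to 4 and 6.59, 5.75, 7.24 and 6.17 in KO cultures 1 to 4. Its difference was -0.006 with a standard error of 0.30. Both sets were selected as the highest of 11859 genes over 8 cultures, so their r is a description with no test.

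**Figure D5:**
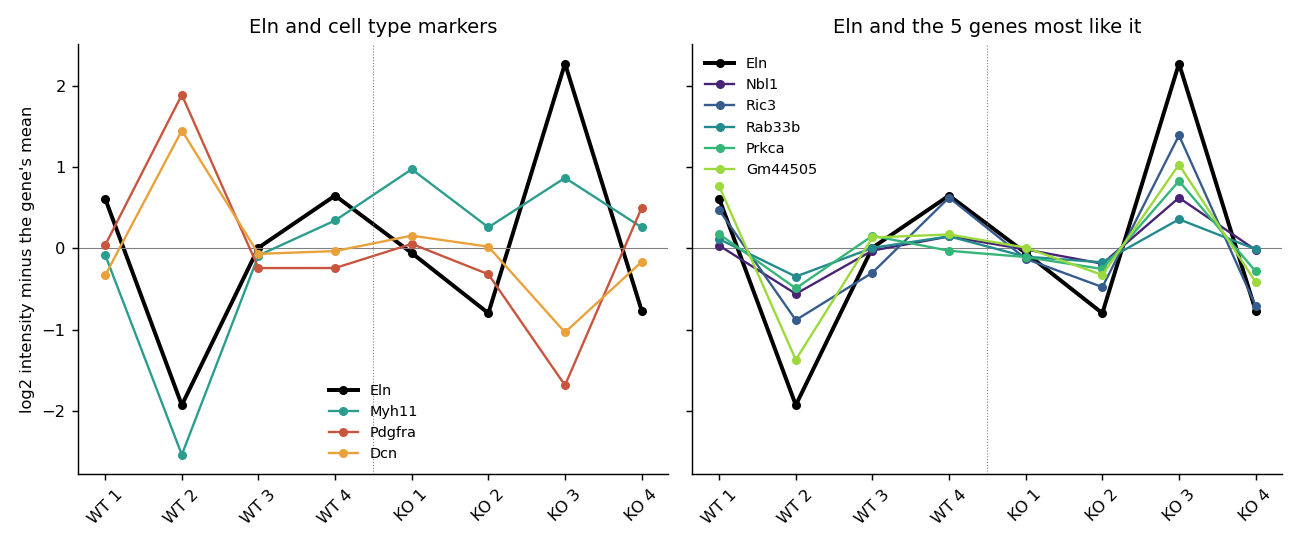
Log2 intensity of Eln (black) in each culture, as the distance from its mean over the 8 cultures. The left panel adds the smooth muscle gene Myh11 and the fibroblast genes Pdgfra and Dcn, and the right panel the 5 genes most like Eln. In WT 2 Eln and Myh11 are lowest while Pdgfra and Dcn are highest, and in KO 3 Eln is highest while Pdgfra and Dcn are lowest.

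At the extremes of Eln, 2 of the 11 tested fibroblast markers, Pdgfra and Dcn, were also at their extremes. In WT culture 2, the lowest for Eln, Pdgfra and Dcn stood at 11.03 and 14.17, and in KO culture 3, the highest, at 7.46 and 11.69; the other 6 cultures lay between 8.82 and 9.64 for Pdgfra and between 12.39 and 12.88 for Dcn. Myh11 was 5.23 in WT culture 2 and 8.64 in KO culture 3. The fibroblast list as a whole did not follow this order. The mean of its 11 genes, each centred on its own mean, was 0.22, 0.48, -0.18 and -0.17 in WT cultures 1 to 4 and 0.52, -0.53, -0.41 and 0.08 in KO cultures 1 to 4, so KO culture 1 was the highest and KO culture 2 the lowest. The same mean of the macrophage and leukocyte markers was highest in WT culture 2, at 2.06, and lowest in KO culture 3, at -2.26. In bulk RNA, a change in the share of a cell type and a change of RNA per cell cannot be told apart.

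Across whole marker lists, the summed normalized intensity of 14 tested of 16 smooth muscle markers was 43157 to 78723 in WT and 66864 to 81093 in KO, with the lowest value in WT culture 2. All 14 were higher in KO by sign, 3 of them with an unadjusted p under 0.05 (0 after adjustment), against 2.61% of all genes higher with such a p. Their median difference was 0.59, and without WT culture 2 it was 0.43 with 12 higher and 2 lower. Pln was the 1 smooth muscle marker not detected on any array. Acta2, smooth muscle actin, stood between 14.56 and 14.64, near the top of the scale, in all cultures. The 11 tested of 12 fibroblast markers summed to 22623 to 46013 in WT, the highest in WT culture 2, and to 26372 to 32001 in KO. By sign 4 were higher and 7 lower, with a median difference of -0.18. All 15 listed macrophage and leukocyte markers were tested, and they summed to 5958 to 59351 in WT and 4225 to 33262 in KO. All 15 were lower in KO by sign, with a median difference of -0.93, while within slide 1 the median was 0.17, with 14 higher and 1 lower. Without WT culture 2 the median was -0.38 and without KO culture 3 it was -0.26, with 2 higher and 13 lower in either case. Ptprc, the leukocyte common antigen, was detected in 2 WT and 2 KO cultures. The 8 tested of 12 endothelial markers summed to 2162 to 3639 in WT and 3339 to 4417 in KO, with Erg not detected on any array and Pecam1, a defining endothelial gene, detected in 3 WT and 4 KO cultures. 7 of these 8 were higher in KO by sign, with a median difference of 0.36, and of 0.06 within slide 1. 0 markers of the fibroblast, macrophage and endothelial lists had an unadjusted p under 0.05. The part of these marker differences in the levels of the elastic fibre genes was not tested.

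Around the 10 members, 6 lists of 83 further genes of elastic fibre assembly, turnover and control were examined, of which 64 were tested. 0 passed a limma adjusted p of 0.05, the smallest being 0.83. 3 of the 64 (4.69%) had an unadjusted p under 0.05, Itgav and Tgfb3 higher and Efemp1 lower in KO, against 5.74% of all genes.

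Of the 12 tested microfibril partners, 4 were higher and 8 lower in KO by sign, with a median difference of -0.0051 that became -0.26 within slide 1. The 3 with the smallest p were Adamtsl5, Ltbp2 and Adamtsl4, which encode proteins that bind fibrillin microfibrils. Their differences were 1.03, 0.81 and 0.89 with standard errors of 0.49, 0.45 and 0.51, and 0.55, 0.33 and 0.37 within slide 1. WT culture 2 was the lowest of the 8 for each of them, and Ltbp2 was detected in 1 WT and 3 KO cultures. Without that culture Adamtsl5 stood at 0.54, Ltbp2 at 0.61 and Adamtsl4 at 0.41, and without KO culture 4 Ltbp2 stood at 0.51.

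The 6 tested other fibulins and linkers had a median difference of -0.40, with 2 higher and 4 lower in KO by sign. Without WT culture 2 that median was 0.02, with 3 higher and 3 lower. Efemp1 encodes fibulin 3, an extracellular matrix protein of the fibulin family. Its level was 6.47, 6.03, 6.67 and 6.13 in WT cultures 1 to 4 and 5.25, 6.14, 5.04 and 5.80 in KO cultures 1 to 4. WT 1 and WT 3 stood above all KO cultures, while WT 2 and WT 4 lay just under KO 2. The difference of -0.77 had a standard error of 0.27 and a limma adjusted p of 0.83, and it was -0.63 within slide 1. It shrank to -0.30 with no background step, -0.38 under normexp with offset 50 and -0.29 in the authors' value table. Fbln7, a further fibulin, and Npnt, an integrin ligand of the basement membrane, stood at -0.68 and 0.35, and at -0.80 and 0.82 within slide 1. Fbln7 was 7.50 in WT culture 2 against at most 5.76 elsewhere, and -0.07 was its difference without that culture.

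The 10 tested genes of cross-linking and lysyl oxidase maturation were split, with 5 higher and 5 lower by sign and a median of 0.0066. Postn, encoding the matricellular protein periostin, had the smallest p, with a difference of -1.02 and a standard error of 0.55. Within slide 1 it was -0.06, and the lowest cultures, KO 3 and KO 4 at 5.65 and 5.48, lay on slide 2. Tnxb, encoding tenascin X, and the lysyl oxidase relative Loxl3 stood at 0.40 and -0.28, and at 0.34 and -0.30 within slide 1. Without WT culture 2 they were 0.11 and -0.53.

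The 8 tested genes of the elastin chaperone and receptor list, which also holds matrix-binding integrins, had a median of 0.06, with 4 higher and 4 lower. Itgav, the integrin αv subunit, read 8.40, 7.93, 8.47 and 8.48 in WT cultures 1 to 4 and 9.45, 8.55, 8.67 and 8.79 in KO cultures 1 to 4. All KO cultures stood above all WT cultures, narrowly so for KO 2. It was the 1 gene of the 64 whose groups did not overlap, while 3.28% of all genes had no overlap. The difference of 0.54 had a standard error of 0.23 and a limma adjusted p of 0.83, and it was 0.68 within slide 1 and 0.35 without KO culture 1. Itga5, the fibronectin receptor subunit, and Neu1, a neuraminidase of the elastin receptor complex, stood at 0.65 and -0.46, and at 0.62 and -0.39 within slide 1. Without WT culture 2 they were 0.38 and -0.23.

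Of the 14 tested elastases and inhibitors, 4 were higher and 10 lower in KO by sign, with a median of -0.21. Ctsd, a lysosomal aspartyl protease, and the elastin-degrading cysteine proteases Ctsk and Ctss had the smallest p, with differences of -0.61, -0.60 and -0.83 and standard errors of 0.34, 0.37 and 1.11. Within slide 1 they stood at -0.01, -0.76 and 0.72. Ctsk was -0.31 without WT culture 2, and Ctss was -0.03 without KO culture 3. Ctss is also in the list of macrophage markers, and it was 9.52 and 9.40 in WT cultures 1 and 2, where the summed macrophage markers were highest. In KO culture 3, where they were lowest, it was 4.87. That sum includes Ctss itself, so the likeness is partly built in, and its cause was not tested.

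The 14 tested regulators had a median of -0.04, with 6 higher and 8 lower by sign. Tgfb3, a TGF-beta ligand, of a family known to raise elastin expression, read 10.54, 9.77, 10.70 and 11.62 in WT cultures 1 to 4 and 11.93, 11.11, 11.68 and 12.04 in KO cultures 1 to 4. Only WT 4 reached the range of the KO cultures. The difference of 1.03 had a standard error of 0.38 and a limma adjusted p of 0.83, and it was 0.86 within slide 1. Il1b, an inflammatory cytokine, was detected in 3 WT cultures and 1 KO culture and stood at -0.86, and the transcription factor gene Sp1 at -0.35. Within slide 1 they were -0.53 and -0.10.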

How the data were processed

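Per the file headers, the deposited scanner table gives for each probe and array a mean bead intensity with its SD, a bead count and a detection p-value. These intensities were not normalized. The authors' value table holds intensities on a linear scale whose array medians are nearly equal (113.4 to 116.2), by a method that the sources used here do not state. Identifiers printed in the scanner table did not belong to the values beside them (Spearman correlation with the value table between -0.0083 and -0.0047), so rows were matched by their ranks on the 8 arrays, and all 46237 rows found 1 partner each. Gene names came from the platform annotation, updated through RefSeq (GRCm38.p6), used for names only.

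Scanner intensities went through the neqc function of limma 3.58.1, run in R 4.3.3 (background from the detection p-values, offset 16, quantile, log2). Probes detected on at least 4 of 8 arrays were kept (21275), and each gene was represented by its brightest kept probe. The detection p-values are not known to come from negative controls, so dim levels are uncertain. KO and WT were compared over all 11859 genes with lmFit and eBayes, two-sided, with Benjamini-Hochberg adjustment. In eBayes the variance of each gene is drawn toward that of all genes. The limma standard errors, intervals and p-values therefore do not follow from the printed SDs alone. Differences of second probes come from the same fit over all 46237 probes. Exact permutation tests over cultures were two-sided. The number of arrays limits the precision, and a median of 38 to 40 beads lay behind a probe. The fit was tested on simulated data.

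All members were named, with the 3 genes of smallest p of each related list and the 5 genes most like Eln and the members' mean. Members and lists were chosen with earlier results of these data known. Alternatives covered background correction, the value table, the detection filter, the probe of a gene, slide, replicate number and leaving out each culture.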

Additional observations from a re-analysis of the deposited data

Results flagged for a closer look

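In 3 of the 62 groups of 4 cultures examined, 1 culture lay far from the other 3 by Dixon's test at its 95% critical value; chance alone flags about 1 in 20 groups. Fbn1 read 11.21 in WT culture 1 against 11.67 to 11.76 in the other WT cultures. Postn read 6.90 in WT culture 1 against 7.71 to 7.81. Itgav read 7.93 in WT culture 2 against 8.40 to 8.48. Neither Eln nor Mfap4, the members with the widest spread, had a culture past this limit.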

How the results depend on the processing

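Under every alternative run, 0 of all genes, 0 of the elastic fibre genes and 0 of the related genes passed a limma adjusted p of 0.05. Of all genes, 681 had an unadjusted p under 0.05, and 1117 of 20289 without a detection filter; of the related genes 3 did, and between 1 and 9 under the alternatives. The median difference of the members was -0.10 and stayed between -0.14 and -0.07 under the other settings, and between -0.14 and -0.03 when 1 culture was left out. Of 63 values of the 7 members under settings other than leaving out a culture, 5 changed sign: Eln at -0.26 and Lox at -0.041, each within slide 1 and in the fit that adds slide as a block, and Fbn1 at 0.17 for the mean of its kept probes. The cause was not tested. Among the named related genes and Tek, 3 of 168 did: Ctss at 0.72 in both slide settings, and Sp1 at 0.026 for the mean of its kept probes. Leaving out 1 culture gave ranges of -0.38 to 0.65 for Eln, -0.51 to 0.24 for Mfap4 and -0.091 to 0.028 for Loxl1, and 7 of 56 values of the members and 0 of 152 of the others changed sign. The difference of Tek was -0.62 with no background step, -0.77 under normexp with offset 50 and -0.61 in the authors' value table, against -1.48, while in these settings Eln stayed between 0.31 and 0.33. Other differences also shrank: with no background step Tnxb was 0.13 against 0.40, Fbln7 -0.31 against -0.68, Npnt 0.14 against 0.35, Ltbp2 0.32 against 0.81 and Il1b -0.30 against -0.86. The marker lists were run under the alternatives only after the data were seen. WT and KO share replicate numbers, but the labels do not say that a number marks a shared origin. Deviations from the group means correlated at 0.32, 0.21, 0.29 and 0.06 between same-numbered cultures, and each culture correlated best with its own number in the other group, a hint from the data. As 1 of the 4 was under 0.1 the numbers were not taken to pair the cultures. With the replicate number as a block 0 genes passed, 1005 had an unadjusted p under 0.05, and the members' median was again -0.10. Probes that did not pass the detection filter, among them those of Fbln5 and Fbn2, lie too near background to give a difference.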
